A study of Rattus norvegicus with 70 samples.

Results

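Hgf, Met, Egfr, Egf, Tgfa, Nrg4, Igf1 and Igf1r code for growth factors and receptors that act when a liver regrows. They were followed through DNA methylation libraries of rat liver. The genes were chosen by name, and every row that carried 1 of the 8 symbols in the deposited region tables was taken. That gave 11 rows of 17174, at 9 places, because 4 Igf1 transcripts fell on 2 overlapping regions and the other genes had 1 row each. The tables name 16561 genes in all.

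Methylated DNA was captured on a methyl-binding protein with the MethylMiner kit and sequenced on a SOLiD 4, so the deposited signal grows with the amount of methylated DNA captured from a region and is not a fraction of methylated sites. All livers came from Crj:CD(SD)IGS rats, an outbred strain. There were 5 libraries in each of 14 groups, 70 in all, from 7 treatments at 2 times. The 5 initiated groups received diethylnitrosamine at 3 mg/kg (DEN 3) or 30 mg/kg (DEN 30), thioacetamide at 45 mg/kg (TAA), methapyrilene at 100 mg/kg (MP) or acetaminophen at 1000 mg/kg (APAP), and each was then promoted with phenobarbital (PB) at 500 ppm in the drinking water. The promoted control had 0.5% methylcellulose as vehicle and then the same PB, and the water control had the vehicle and then plain water. DEN 30 was dosed for 1 week and the protocol gives 1 or 2 weeks for initiation otherwise, followed by 2 weeks without treatment. Liver was taken at terminal euthanasia after 6 weeks of promotion, or at partial hepatectomy after 1 week. Every rat underwent partial hepatectomy, so the terminal livers of all 7 treatments, the water control included, had regrown after surgery. The protocol gives 5 livers a group, each library is taken as 1 liver, and the labels do not say whether a number stands for the same rat at both times.

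Hepatocyte growth factor (Hgf) is made by non-parenchymal liver cells and acts on hepatocytes through the receptor tyrosine kinase Met. The epidermal growth factor receptor (Egfr) is abundant on hepatocytes and binds Egf and transforming growth factor alpha (Tgfa) among other ligands, while neuregulin 4 (Nrg4) is a ligand of the related receptor Erbb4. Insulin-like growth factor 1 (Igf1) is secreted by hepatocytes under growth hormone and acts through Igf1r, which adult hepatocytes carry at low levels. Methylation near a transcript start is often low where the start lies in a dense run of CpG dinucleotides, and the measurement here reads no RNA.

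The regions were windows of 5625 bp, from 4500 bp upstream of an annotated transcript start to a shorter stretch past it. Whether each annotated start is the main promoter of its gene was not checked. In the coordinates of the files, which name no build, Hgf lay at chr4:14931388-14937013 on the minus strand. Met lay at chr4:43129683-43135308 and Tgfa at chr4:120351149-120356774, both on the plus strand. Egf lay at chr2:227193937-227199562 and Nrg4 at chr8:58829541-58835166, both on the minus strand. Egfr lay at chr14:97612858-97618483 and Igf1r at chr1:122700474-122706099, both on the plus strand. The upstream Igf1 region, chr7:24527169-24532794, and the downstream one, chr7:24529321-24534946, shared 3473 bp on the plus strand. No region of another gene in the tables overlapped any of these 9 places.

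The 8 genes were all matched by symbol to RefSeq promoters of the build GRCr8, 250 bases before to 50 after the gene's start. The build differs from that of the files, so the promoter need not begin at the same base as the deposited region. Promoter here means the bases around the annotated start. Whether that start is the gene's own first exon was not checked, for Met or the others. The Met bases hold cttggcag, which resembles the end of an intron, and then a start codon in atgaaggctccc. They may thus lie at a later exon, and their CpG count need not be that of the Met promoter. CpG content set the genes apart. The promoter of Igf1r held 50 CpG and that of Tgfa 36, more than 99.3% and 94.6% of all promoters in the table. Egfr had 15, Nrg4 12 and Igf1 7, and Egf, Hgf and Met had 5 each, against a median of 7 over all promoters. The motif searched was CG, which reads the same on both strands, and 94.5% of all promoters of this length held at least 1. Shown here are the promoter of the gene with the lowest signal (Igf1r, chr1:130959747-130960046, plus strand), those of the genes with the highest signals (Met, chr4:46784496-46784795, plus strand, and Egf, chr2:220976248-220976547, minus strand), and that of the gene with the smallest p among the treatment contrasts (Nrg4, chr8:64555124-64555423, minus strand). Capitals mark each CpG.
Igf1r: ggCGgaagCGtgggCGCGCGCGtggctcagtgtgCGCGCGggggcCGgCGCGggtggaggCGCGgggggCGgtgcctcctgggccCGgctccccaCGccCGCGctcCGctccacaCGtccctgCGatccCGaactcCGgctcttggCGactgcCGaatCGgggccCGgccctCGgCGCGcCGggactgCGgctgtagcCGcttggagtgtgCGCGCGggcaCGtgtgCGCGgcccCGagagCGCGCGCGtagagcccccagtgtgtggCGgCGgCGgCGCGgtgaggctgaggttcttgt
Met: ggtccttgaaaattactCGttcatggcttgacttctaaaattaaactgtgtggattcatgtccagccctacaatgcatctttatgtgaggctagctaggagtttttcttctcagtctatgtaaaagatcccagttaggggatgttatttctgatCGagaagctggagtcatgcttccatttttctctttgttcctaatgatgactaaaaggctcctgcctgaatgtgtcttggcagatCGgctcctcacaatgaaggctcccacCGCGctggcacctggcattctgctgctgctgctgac
Egf: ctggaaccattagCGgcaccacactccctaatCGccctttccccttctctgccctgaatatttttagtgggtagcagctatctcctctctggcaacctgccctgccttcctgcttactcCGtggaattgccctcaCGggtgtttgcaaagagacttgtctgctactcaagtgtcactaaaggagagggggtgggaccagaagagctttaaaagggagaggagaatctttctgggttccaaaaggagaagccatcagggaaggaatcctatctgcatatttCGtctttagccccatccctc
Nrg4: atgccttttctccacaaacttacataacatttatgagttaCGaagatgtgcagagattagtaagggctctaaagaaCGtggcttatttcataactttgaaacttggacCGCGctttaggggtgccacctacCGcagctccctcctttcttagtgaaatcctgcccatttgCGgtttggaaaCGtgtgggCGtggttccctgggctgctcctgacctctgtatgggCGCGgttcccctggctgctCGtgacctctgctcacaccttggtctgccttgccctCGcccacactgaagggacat

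Because all windows had 1 length, signals can be compared between genes per length. Over the 70 libraries the signal averaged 185 ± 36.9 at Egf and 185 ± 37.02 at Met (SD, n = 70), which placed both above 89% of all regions by mean signal (89.6% and 89.5%). Egfr followed at 138 ± 30.0, Nrg4 at 108 ± 26.3 and Tgfa at 98.5 ± 19.2 (SD, n = 70 each). The upstream Igf1 region averaged 66.6 ± 14.9 and Hgf 65.1 ± 15.4, near the median of 53.5 over all regions. The downstream Igf1 region averaged 18.5 ± 9.19 and Igf1r 16.9 ± 13.3, above 23.5% and 21.99% of all regions. Neighbours in this order lay within 1 SD of each other at Egf and Met, at Nrg4 and Tgfa, at the upstream Igf1 region and Hgf, and at the downstream Igf1 region and Igf1r. The order by signal did not follow the CpG count of the 300 promoter bases. Igf1r, the gene with most promoter CpG, was the lowest and Tgfa, the next in CpG, stood in the middle. CpG in the 5625 bp windows, over which the signal was read, was not counted.

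Depth set the counting error at each place, which is only part of the spread between libraries. Scaling totals spanned 42.1 M to 56.6 M reads, of which 0.933 M to 1.80 M fell in regions. Igf1r rested on 1 to 64 reads a library and the downstream Igf1 region on 5 to 47, whereas Egf had 78 to 270. Counting alone gives a coefficient of variation of about 24.5% at the Igf1r level and 7.41% at the Egf level, and the median within-group coefficient was 62.2% at Igf1r and 18.1% at Egf. In 9 libraries, 5 at terminal euthanasia and 4 at partial hepatectomy, fewer than 1% of regions had no read (0.611% to 0.931%, against 1.60% to 5.39% in the other 61), which is taken here as weaker enrichment. The libraries numbered 61 to 70 in the titles were all scaled with a total that equals, to the read, that of the library numbered 60 lower. Median-ratio size factors of these 10 libraries ran from 0.982 to 1.34 with a median of 1.20, against 0.816 to 1.07 with a median of 0.982 in the other 60. Signals in these 10 libraries may therefore be on another scale. All 10 are replicate 5 of an initiated group, and neither vehicle group holds any. They thus lie on 1 side only of each contrast of an initiator with vehicle. Their median signal was above that of the other 60 at Egf (219 against 180) and Hgf (83.2 against 62.4). At Igf1r it was below (12.9 against 14.6). Results without them are given for the upstream Igf1 region and for the counts of regions called. Of the 37 marker genes of hepatocytes, bile duct, stellate, macrophage, endothelial and lymphoid cells, 30 were in the tables. None of them passed the test in any of 18 comparisons, in each of which at most 0.0671% of all regions passed. The assay reads DNA, so it does not check which cells the livers held, and a change in the mix of cells cannot be told apart from a change within a cell type.

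Igf1r was the place where signal differed most clearly with enrichment, being higher where enrichment was weaker. Weak enrichment was defined by few regions without a read, so a higher signal at low-signal regions partly follows from that definition. Its signal in the 9 weakly enriched libraries ran from 24.97 to 67.8 with a median of 35.5. In the other 61 libraries it ran from 1.05 to 28.1 with a median of 11.9. All 9 weakly enriched libraries lay above the median of the others at Igf1r, and 8 of 9 did so at the downstream Igf1 region, where the medians were 26.8 and 15.3. The places with high signal went the other way. None of the 9 exceeded the median of the others at Egf, Egfr or Nrg4, and the medians at Nrg4 were 71.1 in the weakly enriched libraries and 106 in the others. Hgf showed little of this, with medians of 62.9 and 64.9. The part this plays in the contrasts of treatments was not tested beyond the fits without these libraries.

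**Figure D1:**
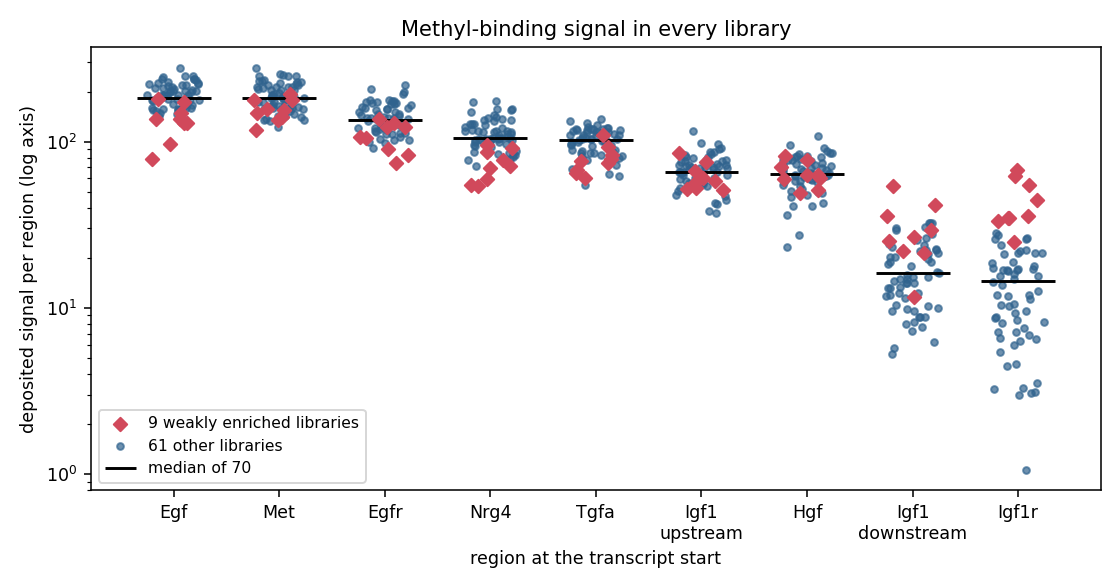
Deposited signal (log axis) of each of the 9 regions in all 70 libraries, ordered by mean, with diamonds for the 9 weakly enriched libraries, circles for the other 61 and a bar at the median of 70. At Igf1r the diamonds lie between 24.97 and 67.8, above most circles, and at Nrg4 none lies above the median of the circles (106).

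The treatments were compared in 14 contrasts, 7 at each time, with limma on log2(signal + 1) across all regions that passed a minimum of 10 in at least 5 libraries (16008 at terminal euthanasia and 15809 at partial hepatectomy). No member region passed a Benjamini-Hochberg adjusted p of 0.05 in any of the 14, and neither did any other region (0 called, which is 0% of the regions tested in each contrast). The F test over the 7 groups called 0% at terminal euthanasia and 0.00633% at partial hepatectomy, where the 1 region called was that of Slc7a11, the cystine transporter, named here after its value was seen. Of 126 member differences, 7 (5.56%) had an unadjusted p under 0.05, against 4.25% of all region differences in these contrasts. The fitted log2 differences ran from -1.05 to 0.83, both at Igf1r at terminal euthanasia, for DEN 3 against vehicle with PB and for DEN 30 against DEN 3. Each extreme leaned on 1 weakly enriched library: without the vehicle library at 44.6 the first was -0.60, and without the DEN 30 library at 67.8 the second was 0.18. At the other genes they stayed between -0.48 and 0.71. The typical standard error was 0.19 at Met, Egf and Tgfa and 0.55 at Igf1r, so the same difference is far less certain at Igf1r.

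**Figure D2:**
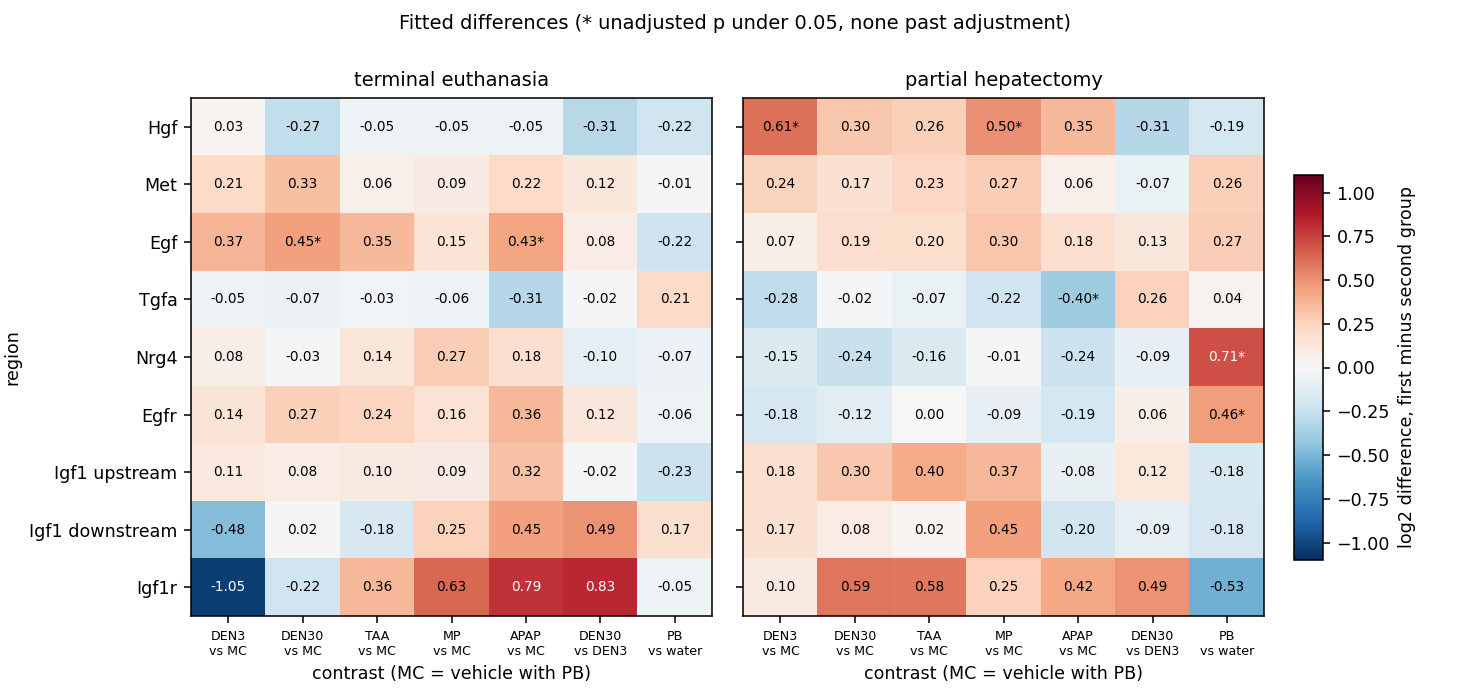
Fitted log2 difference, first minus second group, at the 9 regions (rows) in 7 contrasts (columns) at terminal euthanasia (left) and partial hepatectomy (right), on a colour scale from blue (lower) to red (higher), with a star at an unadjusted p under 0.05. Nrg4 in PB against water at partial hepatectomy (0.71) has the smallest p of the 126, and the sizes at Igf1r (-1.05 to 0.83) carry the largest errors.

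Among the ligands, Nrg4 differed most between PB and water at partial hepatectomy. The 5 PB livers given vehicle had signals of 116, 125, 128, 135 and 136, against 54.7, 77.0, 78.4, 83.1 and 105 in the 5 water livers. All 5 PB livers lay above all 5 water livers, as they did at 0.55% of the regions tested. The means were 128 ± 8.29 with PB and 79.6 ± 17.8 with water (SD, n = 5 each). limma gave a log2 difference of 0.71 (SE 0.18, 95% interval 0.34 to 1.07), with an unadjusted p of 0.000248 that ranked 5th of 15809 regions and an adjusted p of 0.56. At the unadjusted threshold, 2 of 9 member regions passed in this contrast, Nrg4 and Egfr, against 6.28% of all regions. In the authors' deposited table the p-value of Nrg4 for the same groups was 0.00183.

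The lowest water value, 54.7, came from a weakly enriched library, and without the weakly enriched libraries the difference was 0.58 with an adjusted p of 1.00. Within blocks of consecutive library numbers, the PB mean exceeded the water mean in each of the 3 blocks that held both groups: 132 against 90.9 and 120 against 80.8 with 2 libraries each, and 135 against 54.7 with 1 each. The 5 initiated groups at partial hepatectomy, which had PB as well, averaged 116 ± 15.5 with DEN 3, 109 ± 18.2 with DEN 30, 117 ± 32.04 with TAA, 129 ± 24.6 with MP and 111 ± 28.4 with APAP. None of them differed from the PB group at an unadjusted p under 0.05.

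At terminal euthanasia the Nrg4 means of the same groups were close, at 94.6 ± 21.3 with PB and 97.5 ± 12.5 with water (SD, n = 5 each). The PB livers given vehicle had signals of 59.5, 92.2, 100, 106 and 115, against 84.7, 85.8, 99.1, 103 and 114 in the water livers, and the groups overlapped. limma gave -0.07 (SE 0.22, adjusted p = 1.00), and without the weakly enriched PB library at 59.5 the sign turned, to 0.09. The PB minus water difference at terminal euthanasia was lower by 0.77 on the log2 scale than that at partial hepatectomy (SE 0.29), with an unadjusted p of 0.00979 and an adjusted p of 0.72 in limma. It was 1 of 9 member regions under an unadjusted 0.05 in this comparison, against 6.63% of all regions, and 0% of regions passed after adjustment. Without the weakly enriched libraries it was -0.49, with an adjusted p of 1.00. In the PB group given vehicle all 5 terminal livers lay below all 5 hepatectomy livers at Nrg4, as at 0.201% of regions tested.

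**Figure D3:**
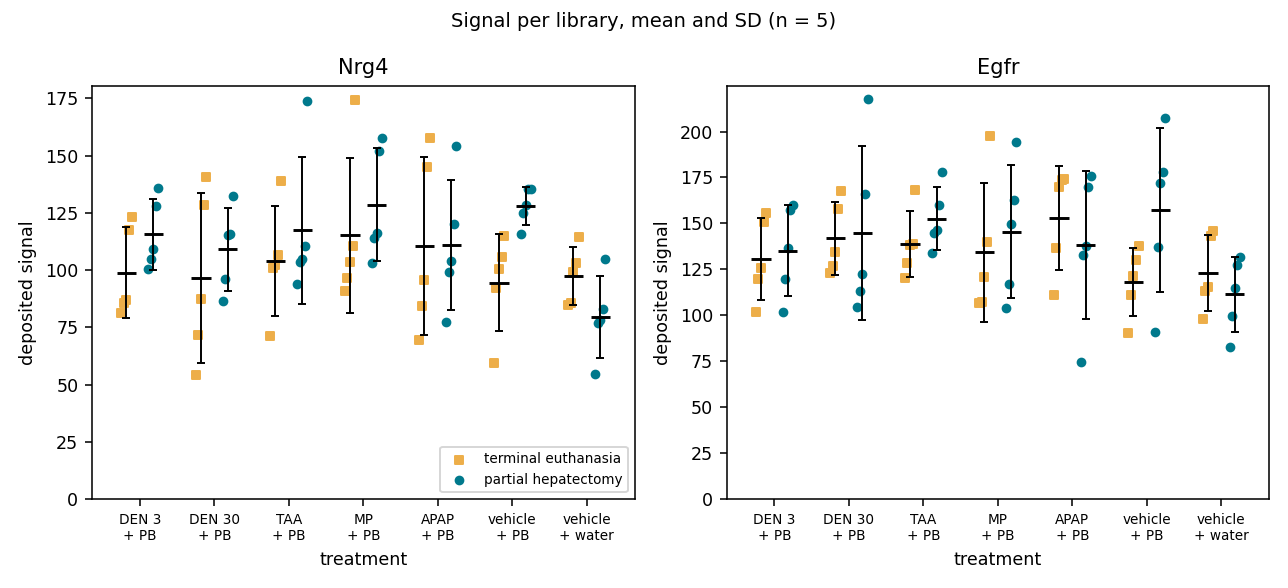
Deposited signal of Nrg4 (left) and Egfr (right) in each library by treatment, squares for terminal euthanasia and circles for partial hepatectomy, with the mean and SD of 5 libraries. At partial hepatectomy the vehicle livers with PB sit between 116 and 136 at Nrg4, above the water livers at 54.7 to 105, and at terminal euthanasia the same groups overlap.

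Egf, whose region carried the highest mean signal of the 9, was higher in DEN 30 and APAP livers than in vehicle livers with PB at terminal euthanasia, without passing the adjusted test. DEN 30 livers had 129, 201, 211, 245 and 249, and APAP livers 138, 179, 204, 227 and 276, against 97.3, 140, 160, 160 and 199 in the vehicle livers with PB. The groups overlapped in both contrasts. limma gave 0.45 for DEN 30 (SE 0.20, unadjusted p = 0.0298) and 0.43 for APAP (SE 0.20, unadjusted p = 0.0364), with adjusted p of 1.00 for both. Egf was the only member region under an unadjusted 0.05 in each of these contrasts, against 3.41% of all regions for DEN 30 and 2.76% for APAP. The lowest library of each of the 3 groups was weakly enriched, and without the weakly enriched libraries the differences were 0.46 for DEN 30 and 0.42 for APAP. Without the vehicle library at 97.3 alone, the differences were 0.30 for DEN 30 and 0.28 for APAP. The highest libraries, at 249 with DEN 30 and 276 with APAP, are among those whose signals may be on another scale. The vehicle group holds no such library. The median of such libraries at Egf was 219, against 180 in the others. Differences without them are not given for Egf. Within blocks of library numbers the differences were 0.46 and 0.87 for DEN 30 and 0.10 and 0.85 for APAP, the higher value of each resting on 1 vehicle library, that at 97.3. Since both contrasts share the vehicle group, they are not independent. DEN 3, TAA and MP livers were also above that vehicle group, by 0.37, 0.35 and 0.15, and PB minus water was -0.22.

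Tgfa was lower in APAP livers than in vehicle livers with PB at partial hepatectomy. The values were 64.96, 77.9, 80.0, 85.7 and 94.5 with APAP, against 85.1, 95.8, 110, 117 and 125 with vehicle, and the groups overlapped. The APAP library at 64.96 was weakly enriched, and was also among the libraries whose signals may be on another scale. Weakly enriched libraries read low at Tgfa, with a median of 76.3 against 103 in the others. limma gave a difference of -0.40 (SE 0.18, unadjusted p = 0.0339, adjusted p = 0.99), and Tgfa was the 1 of 9 member regions below 0.05 unadjusted, against 3.68% of all regions. Leaving out 1 library at a time gave differences of -0.47 to -0.32. The authors' deposited table gave a p-value of 0.0201. At terminal euthanasia the difference was -0.31 with an unadjusted p of 0.135. The Tgfa window kept group means within 80.6 to 107 at all 14 groups.

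Hgf was higher in DEN 3 and MP livers than in vehicle livers with PB at partial hepatectomy, again without passing the adjusted test. DEN 3 livers had 62.1, 68.4, 77.6, 84.0 and 94.8, MP livers had 62.9, 65.6, 71.3, 77.7 and 79.0, and vehicle livers with PB had 23.2, 48.9, 54.05, 61.1 and 81.8. The groups overlapped only through the highest vehicle library, at 81.8. limma gave 0.61 for DEN 3 (SE 0.21, unadjusted p = 0.00561) and 0.50 for MP (SE 0.21, unadjusted p = 0.0211), and the adjusted p was 1.00 for both. Hgf was 1 of 9 member regions below 0.05 unadjusted in each, against 3.17% of all regions for DEN 3 and 3.67% for MP. The vehicle library at 23.2 weighed most: without it the differences were 0.34 and 0.23. Within library blocks the DEN 3 difference was 1.09 and 0.20, and the MP difference was 0.01 and 0.35. The vehicle group with PB had the lowest Hgf mean of the 14 groups, at 53.8. DEN 30, TAA and APAP livers of partial hepatectomy were also above it, by 0.30, 0.26 and 0.35, and PB minus water was -0.19. The higher DEN dose did not go further, with 51.2, 60.4, 62.02, 66.7 and 68.8 in DEN 30 livers and a difference from DEN 3 of -0.31 (unadjusted p = 0.147). At terminal euthanasia Hgf averaged 70.6 ± 26.7 with DEN 3, 65.4 ± 19.6 with MP and 65.7 ± 9.89 with vehicle and PB (SD, n = 5 each), and the differences of 0.03 and -0.05 were far inside their errors of 0.24.

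Among the receptors, Egfr was higher with PB than with water at partial hepatectomy in 4 of 5 livers. The PB livers had 91.1, 137, 172, 178 and 207, against 83.0, 99.9, 115, 127 and 132 in the water livers, so the lowest PB liver fell inside the water range. The limma difference was 0.46 (SE 0.21, unadjusted p = 0.0307, adjusted p = 0.74). Within library blocks it was 0.54, 0.06 and 1.09. Without the weakly enriched libraries it was 0.36, the water library at 83.0 being 1 of them, and with quantile normalization it was 0.30. At terminal euthanasia the means were 118 ± 18.5 with PB and 123 ± 20.6 with water (SD, n = 5 each), a difference of -0.06 (adjusted p = 1.00). That sign turned to 0.03 without the weakly enriched libraries.

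Met, the receptor of Hgf, carried a signal as high as that of Egf. Its group means at partial hepatectomy ran from 145 ± 25.5 in water livers to 209 ± 19.3 in MP livers (SD, n = 5 each). The F test over the 7 groups at partial hepatectomy gave an unadjusted p of 0.0432 at Met and 0.00568 at Nrg4, the 2 of 9 member regions under 0.05, against 4.16% of all regions, with an adjusted p of 0.99 for both. The water livers were the lowest group at both genes. In the 14 treatment contrasts Met had no unadjusted p under 0.05, and the fitted differences stayed between -0.07 and 0.33. At terminal euthanasia the Met group means ran from 163 ± 25.1 with vehicle and PB to 206 ± 37.2 with DEN 30.

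Igf1r, the receptor with the CpG-dense promoter, gave the widest spread. At terminal euthanasia DEN 3 livers had 3.12, 3.53, 5.43, 7.19 and 10.2, against 4.61, 5.95, 9.51, 21.3 and 44.6 in vehicle livers with PB, and the groups overlapped. limma gave -1.05 (SE 0.54, unadjusted p = 0.056, adjusted p = 0.58). The highest of those vehicle livers was a weakly enriched library, and without it the difference was -0.60 with an adjusted p of 1.00. With a pseudocount of 10 it was -0.61. The F test at terminal euthanasia gave an unadjusted p of 0.0254 at Igf1r, 1 of 9 member regions against 2.55% of all regions, and an adjusted p of 1.00. None of the DEN 3 libraries was weakly enriched, whereas 1 library each of the DEN 30, TAA, MP, APAP and PB vehicle groups was.

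The upstream Igf1 region was the member that differed most between the times. Over the 7 treatments the 35 terminal libraries ran from 51.7 to 116 with a median of 68.9, against 37.4 to 82.9 with a median of 60.4 in the 35 hepatectomy libraries. The means were 72.3 ± 15.01 at terminal euthanasia and 60.9 ± 12.6 at partial hepatectomy (SD, n = 35 each), and the terminal mean was higher in 7 of 7 treatments. Over all tested places 70.3% were higher at terminal euthanasia in the mean of the 7 treatments, with a median log2 difference of 0.05. limma over 70 libraries gave a mean log2 difference of 0.25 (SE 0.07) with an unadjusted p of 0.00138 and an adjusted p of 0.28. It was 1 of 9 member regions under an unadjusted 0.05, against 6.59% of all regions, and 0.0671% of regions, 11 of 16385 and no member among them, passed after adjustment, all 11 higher at terminal euthanasia. The table columns of the 2 times come from separate deposited tables scaled to 1 constant, and the time cannot be told apart from surgery, regrowth and the longer promotion.

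The difference at Igf1 ranged widely over the treatments. In APAP livers the values were 70.1, 75.6, 79.8, 84.4 and 96.2 at terminal euthanasia, against 37.4, 47.2, 47.5, 50.4 and 66.9 at partial hepatectomy, so that the groups did not overlap, as at 0.476% of the regions tested. The log2 difference was 0.71 in APAP livers, 0.36 in water livers and 0.31 in vehicle livers with PB. It was 0.23 with DEN 3, 0.09 with DEN 30, 0.03 with MP and 0.00 with TAA. Within the 4 library blocks the difference was 0.07, 0.34, 0.23 and 0.45, the last from the libraries numbered 61 to 70, and without those libraries the mean difference was 0.20 with an adjusted p of 0.61. The overlapping downstream Igf1 region averaged 19.99 ± 10.7 at terminal euthanasia and 16.9 ± 7.24 at partial hepatectomy, a difference of 0.19 (SE 0.16, unadjusted p = 0.251). The other 7 member regions differed between the times by -0.15 to 0.04, with Nrg4 the lowest at an unadjusted p of 0.0641.

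**Figure D4:**
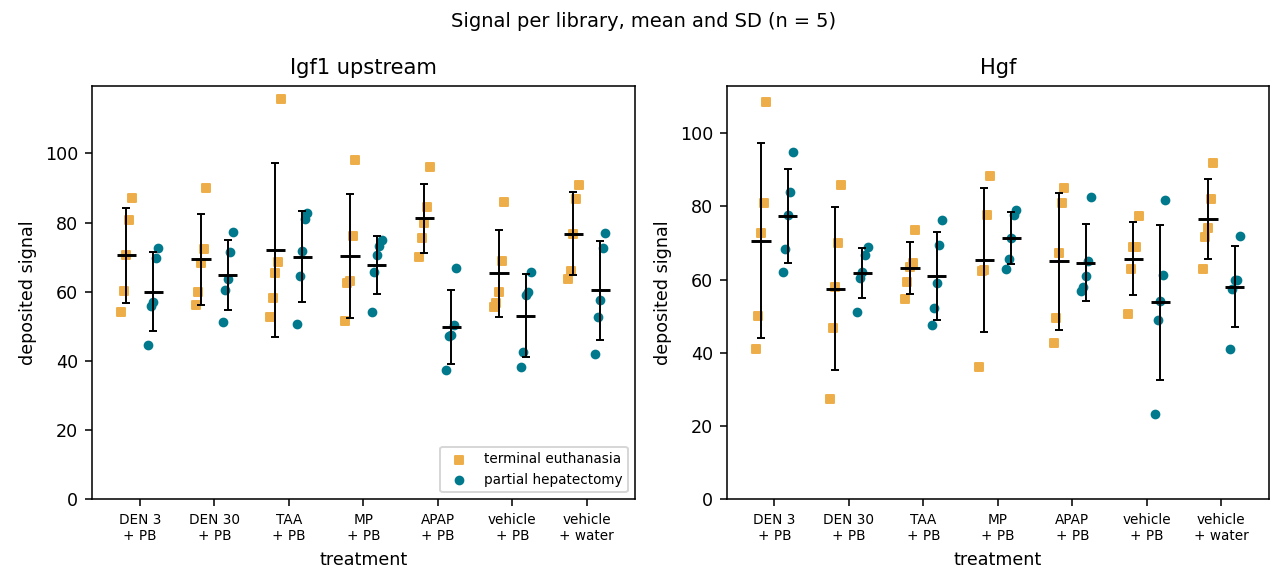
Deposited signal of the upstream Igf1 region (left) and Hgf (right) in each library by treatment, squares for terminal euthanasia and circles for partial hepatectomy, with the mean and SD of 5 libraries. The terminal APAP livers sit between 70.1 and 96.2 at Igf1, above the hepatectomy APAP livers at 37.4 to 66.9, and at Hgf the vehicle library at 23.2 lies below all DEN 3 and MP libraries of partial hepatectomy.

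The members were also compared with each other and with all tested regions after the group means were subtracted, as a description over 70 libraries that share depth, enrichment and scaling. Nrg4 and Egf varied together (Pearson r = 0.61), as did Egf with Tgfa (r = 0.48), Nrg4 with Tgfa (r = 0.48) and Egfr with Met (r = 0.47). Igf1r ran against Egf (r = -0.60) and Egfr (r = -0.44). Hgf and Met, ligand and receptor, had r = 0.15, and the upstream Igf1 region and Igf1r had r = -0.08. The region of another gene most like Egf was Drd1a, a dopamine receptor (r = 0.85), most like Nrg4 was Mir135a (r = 0.79), and most like Egfr was Znf710 (r = 0.72). Igf1r was most like RGD1311458 (r = 0.70), Tgfa like Spink4 (r = 0.69), Met like Slamf9 (r = 0.68) and Hgf like Eri2 (r = 0.63). The upstream Igf1 region was most like Postn (r = 0.56) and the downstream one like Mir129-2 (r = 0.59). These are the highest among all regions tested, and the median r of all regions with a member lay between -0.08 and 0.21.

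Beyond the 8 genes, the wider growth factor system was read through 87 genes in 9 roles, of which 81 had a region in the tables at 87 places. None passed the adjusted test in any of 18 comparisons, in each of which at most 0.0671% of all regions passed. In PB against water at partial hepatectomy, 4 of 85 tested places were higher and 3 lower at an unadjusted p under 0.05, against 6.28% of all regions in either direction, with a median log2 difference of 0.09 against 0.06 over all places. All 3 other EGF receptor genes and 5 of 6 other EGF ligand genes lay on the higher side there, compared with 57.5% of all places. The lean was not particular to them, since 10 of 13 places of other liver growth factors and 24 of 30 cell marker places were also higher. Over the wider growth factor list 52 places were higher and 33 lower. Among the inhibitors 3 were higher and 5 lower, and so were 3 and 5 of the growth restraint genes. The smallest p belonged to Ereg, an EGF receptor ligand, at 173 ± 26.5 with PB and 125 ± 19.4 with water (log2 difference 0.47, SE 0.17, adjusted p = 0.73). Sos1, an exchange factor that activates Ras, averaged 20.2 ± 10.4 with PB and 36.6 ± 12.95 with water (-0.88, adjusted p = 0.73). Fgfr4, the bile acid responsive FGF receptor of hepatocytes, averaged 142 ± 13.2 with PB and 106 ± 33.5 with water (0.47, adjusted p = 0.73), and the difference was 0.26 without the weakly enriched water library, replicate 5. With quantile normalization Ereg had a difference of 0.26.

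In DEN 30 against vehicle with PB at partial hepatectomy, 8 of 85 places of the wider system were higher and 1 lower at an unadjusted p under 0.05, against 7.64% of all regions in either direction, with a median of 0.04 against 0.04 over all places. Tgfbr1, a receptor of the growth-restraining TGF beta, averaged 83.6 ± 11.9 with DEN 30 and 123 ± 22.03 with vehicle (-0.54, adjusted p = 0.52). Igfbp3, a carrier of Igf1 in blood, averaged 37.6 ± 8.05 with DEN 30 and 22.5 ± 9.20 with vehicle (0.80, adjusted p = 0.59). Sos1 was at 35.2 ± 10.3 with DEN 30, close to its level in water livers, and at 20.2 ± 10.4 with vehicle and PB (0.86, adjusted p = 0.59), a group that both contrasts share.

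At terminal euthanasia, 4 of 87 places were higher and 1 lower at an unadjusted p under 0.05 in PB against water, against 3.17% of all regions in either direction, with medians of -0.01 in the list and 0.00 over all places. Tgfb1 averaged 153 ± 45.4 with PB and 102 ± 21.8 with water (0.54), and Spint1, an inhibitor of the protease that activates Hgf, averaged 49.002 ± 16.1 with PB and 28.6 ± 2.31 with water (0.70). Stat5b, the transcription factor through which growth hormone drives Igf1, averaged 86.8 ± 19.1 with PB and 118 ± 13.95 with water (-0.45). In DEN 30 against vehicle with PB, Stat5b averaged 124 ± 22.5 with DEN 30 and 86.8 ± 19.1 with vehicle (0.51). Both Stat5b differences share the vehicle group with PB, so they are not independent. In this DEN 30 contrast 3 places were higher and 1 lower at that threshold, against 3.41% of all regions. The medians were 0.08 in the list and 0.07 over all places. Grb10, an adaptor that restrains Igf1r signalling, averaged 266 ± 64.03 with DEN 30 and 190 ± 40.8 with vehicle (0.48), or 0.32 without the weakly enriched vehicle library, replicate 5. The growth hormone receptor Ghr averaged 4.85 ± 4.82 with DEN 30 and 11.96 ± 8.09 with vehicle (-1.64, or -0.57 with a pseudocount of 10). The adjusted p of each of these 6 values was 1.00.

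Between the times, 66 of 87 places of the wider system were higher at terminal euthanasia and 21 lower, while 70.3% of all places were higher. At an unadjusted p under 0.05, 4 of the 87 were higher and 0 lower, against 6.59% of all regions, and the medians were 0.05 in the list and 0.05 over all places. Igf2, the fetal insulin-like growth factor, averaged 21.9 ± 10.4 at terminal euthanasia and 16.2 ± 7.10 at partial hepatectomy at 1 of its regions (0.41, adjusted p = 0.45), a difference of 0.27 with a pseudocount of 10. Gab1, a docking protein of Met and Egfr, averaged 44.7 ± 10.8 at terminal euthanasia and 37.9 ± 8.97 at partial hepatectomy (0.23, adjusted p = 0.58). Igfbp2 averaged 147 ± 31.2 at terminal euthanasia and 132 ± 22.1 at partial hepatectomy (0.15, adjusted p = 0.70). Each of these means is over 35 libraries a time, with SD.

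The authors' peak list, which sets DEN 30 against PB at time points called 5w and 11w (the region tables call their later time 10W), placed 25 of its 36231 peaks in 6 of the 8 genes, and 7242 genes had at least 1 peak, with a median of 1. All 25 were intronic per the list, as were 34.1% of all its peaks, none fell inside the regions at the transcript starts, and Nrg4 and Igf1 had none. Igf1r had 12 peaks, Egfr 5, Met 4, Egf 2, and Hgf and Tgfa 1 each. Igf1r is also the longest of the 6, at 288878 bp in GRCr8, and 93 genes of the list had as many peaks as Igf1r or more. The 23 peaks at 5w were all higher in DEN 30, as were 95.4% of all peaks at that time, and the 2 at 11w, 1 in Igf1r and 1 in Hgf, were lower in DEN 30, as were 67.7%.

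Each peak rested on few reads. At Igf1r the set with more reads had 15 to 30 and the other 1 to 5, and the authors' enrichment factor, a ratio of those counts times a constant of each time point, ran from 4.49 to 14.2. The peak nearest to the start lay 3.01 kb into the gene, at chr1:122707912-122708091, with 19 reads in DEN 30 and 2 in PB. At Met the nearest peak lay 6.16 kb downstream of the start, at chr4:43140251-43140439, with 22 reads in DEN 30 and 5 in PB. At the single Hgf peak, 26.1 kb into the gene, DEN 30 had 5 reads and PB 21. The list does not say whether libraries were pooled, so these counts have no replicate error.

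**Figure D5:**
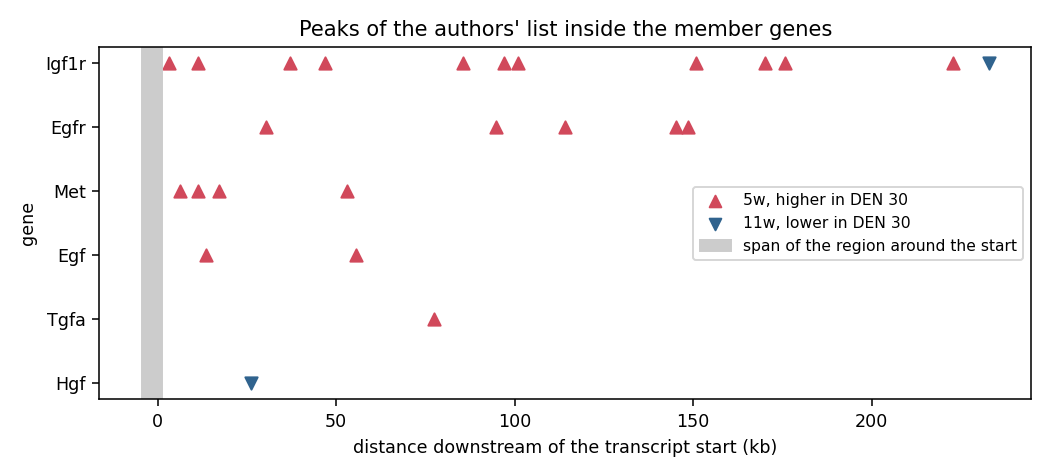
Distance of each of the 25 peaks of the authors' list from the transcript start (kb, horizontal axis) in the 6 member genes that have any, upward triangles for peaks higher in DEN 30 at 5w and downward triangles for peaks lower in DEN 30 at 11w. The shaded band is the span of the regions, and no peak falls in it, the nearest being 3.01 kb into Igf1r.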

How the data were processed

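Methylated DNA of rat liver was captured and sequenced as 50-base reads, per the labels' protocols. The deposited signal of each region was scaled by the authors to 50 M reads, since above a placeholder of 0.01 every value in a library is a whole multiple of 1 step, within a tolerance of 0.01. For the aligner, build and counting rule nothing is stated in the labels or headers. The deposited p-value of a region compares a group with the vehicle and PB group, per the file headers, and is used only for partial hepatectomy. The authors' peak list gives 2 read numbers and an enrichment ratio for each peak, and does not name its caller or any pooling.

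Signals were taken as log2(signal + 1) and fitted with limma 3.58.1 (R 4.3.3, trend), with 1 mean per group, over 35 libraries for contrasts within a time and 70 libraries across times. Regions needed a signal of 10 in at least 5 libraries. P-values were Benjamini-Hochberg adjusted over all regions tested, with a threshold of 0.05, and the fit was tested on simulated data. Intervals are 95%. P-values measure the spread between libraries, and the labels do not say which library came from which animal. The members and gene lists were chosen with earlier results of these data known. Named genes are all members, plus the 3 genes of the wider list with the smallest p in each of 5 comparisons and the region of another gene most like each member. The alternatives were a pseudocount of 10, no filter, quantile normalization, library number or replicate number as a block, fits of the contrast's groups alone, fits without some libraries and, added after the data were seen, median-ratio scaling. Figures were drawn with matplotlib 3.10.9.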

Additional observations from a re-analysis of the deposited data

Results flagged for a closer look

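In 9 of 126 groups of 5 libraries (7.14%) the highest or lowest library stood apart from the other 4 by Dixon's test, where chance gives about 1 in 20. Egf had 239 in TAA replicate 5 at partial hepatectomy, with the others at 178 to 192. Nrg4 had 174 in the same library, with the others at 94.1 to 111, and 174 in MP replicate 5 at terminal euthanasia, with the others at 90.9 to 110. The upstream Igf1 region had 116 in TAA replicate 5 at terminal euthanasia, with the others at 52.8 to 68.5. The downstream Igf1 region had 53.8 in vehicle and PB replicate 5 at terminal euthanasia, with the others at 10.4 to 16.2. Igf1r had 34.9 in APAP replicate 5 at partial hepatectomy, with the others at 8.68 to 14.2, and 67.8 in DEN 30 replicate 3 at terminal euthanasia, with the others at 3.26 to 15.5. Met had 186 in water replicate 5 at terminal euthanasia, with the others at 156 to 159. Tgfa was lowest, at 60.3, in MP replicate 3 at terminal euthanasia, with the others at 104 to 122. Of these 9 values, 5 came from the libraries numbered 61 to 70 and 4 from weakly enriched ones, 8 from either.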

How the results depend on the processing

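None of 4120 member fits under the alternatives passed the adjusted threshold in limma, the lowest adjusted p being 0.13. The PB minus water difference at terminal euthanasia turned positive without the weakly enriched libraries, to 0.034 at Egfr and 0.088 at Nrg4, and leaving out 1 library gave -0.13 to 0.034 at Egfr and -0.15 to 0.088 at Nrg4. Of 131 other member differences, 63 changed sign somewhere, the largest of them 0.591 in size. Region counts started at 0 for DEN 30 against vehicle at partial hepatectomy and became 5 with a pseudocount of 10, 3 with library blocks or the contrast's groups alone, and 1 with the replicate block, without libraries 61 to 70 or with median-ratio scaling. The F test there, at 1, became 2 with a pseudocount of 10, quantile normalization or median-ratio scaling, and 0 with no filter, library blocks or without libraries 61 to 70. Counts of 0 became 1 for MP at partial hepatectomy and DEN 3 at terminal euthanasia with the contrast's groups alone, and 1 for DEN 30 against DEN 3 at partial hepatectomy and DEN 3 at terminal euthanasia without libraries 61 to 70. DEN 30 at terminal euthanasia had 2 with library blocks, and the F test there 1 with quantile normalization or median-ratio scaling. The comparison of times, at 11, had 25 with quantile normalization and 23 without weakly enriched libraries. The PB by time comparison, at 0, had 1 under each of those settings and 2 with the replicate block. The cause was not tested.

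Leaving out 1 library gave 0 to 1 regions for PB against water at either time, for TAA, MP and DEN 30 against DEN 3 at partial hepatectomy and for DEN 3 at terminal euthanasia. It gave 0 to 4 for DEN 30 and for the F test at partial hepatectomy, 0 to 2 for DEN 30 at terminal euthanasia, 0 to 5 for PB by time and 11 to 14 for the times. Replicate numbers were not treated as pairs, since the labels do not tie them to an animal and not every pair correlated above 0.1. Deviations of the same number at both times correlated at -0.38 to 0.68 over 35 pairs. The median was 0.08, and 11 were above 0.1. Of the 35 hepatectomy libraries, 13 correlated best, among all 35 terminal libraries, with that of their own treatment and number. That is more than numbers that carried nothing would give. Same-numbered libraries of a treatment also lie in the same library block. Each block also holds terminal libraries of other treatments and numbers, so sharing a block is not the same as sharing a number. How many best matches a shared block alone would give was not tested, and pairing is not settled. The replicate block called no member. At Tgfa the same-number correlation of the 2 times, -0.02, turned to 0.086 without the 2 farthest pairs. Median shifts over 0.1 were -0.102 for APAP at terminal euthanasia with quantile normalization and -0.108 for DEN 3 with median-ratio scaling. The planned edgeR and DESeq2 fits were not run. Counting error was largest at Igf1r and the downstream Igf1 region.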

Other observations

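Libraries of the same number in the same treatment were compared between the times at each member region, as 35 pairs of deviations from the group means. Egf had the highest Pearson r, 0.36, with a permutation p of 0.036 that became 0.324 after Benjamini-Hochberg adjustment over the 9 regions. Spearman's rho at Egf was 0.33, with a permutation p of 0.051 and an adjusted p of 0.459. Without the 2 pairs farthest from the median, r at Egf was 0.20. Over 16385 regions the median r was 0.0995.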
